A study of Mus musculus with 4 samples.

Results

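The immediate early genes are a set of 10 genes, Fos, Fosb, Jun, Junb, Egr1, Egr3, Atf3, Ier2, Dusp1 and Nr4a1, chosen by their symbols through the RefSeq accession that each probe targets. They are 10 of the 25694 genes with ratios on the array, and each is measured by 1 probe. They were read in both dyes on 4 two-colour arrays of 1 slide, each carrying DEP_ear RNA in Cy5, the red dye, and CON_ear RNA in Cy3, the green one. DEP stands for diesel exhaust particles. The study's methods describe male BALB/c mice aged 6 to 10 weeks, 9 in all, of which the exposed inhaled DEPs for 1 h on days 1 to 5, and all were killed on day 14. The labels give the treatment of the control ears as none, and how many mice stand behind an extract is not stated. All mice were anaesthetised before sampling and killed with CO2. The extracts are whole dissected middle ears from the temporal bone, so they mix bone, marrow, muscle, nerve and lining, and fewer cells of a type and less RNA per cell cannot be told apart.

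Immediate early genes are switched on within minutes of a stimulus by transcription factors that are already present in the cell, without new protein synthesis, and are switched off again soon after. They are known as a readout of growth factor signalling, of neuronal firing, of tissue stress and of the handling of tissue at sampling. Fos and Fosb pair with Jun and Junb to form the transcription factor AP-1. Egr1 and Egr3 are zinc finger factors, Atf3 is a stress-induced factor of the ATF/CREB family, Nr4a1 is an orphan nuclear receptor, Dusp1 is a phosphatase that turns off MAP kinases, and Ier2 is a small nuclear protein of the early response.

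Promoter sequences of RefSeq (build GRCm38.p6, not the mm9 build named for the array design) were found for 7 of the 10 genes. They are shown for Fos and Fosb, which had the widest ratios. They are also shown for Nr4a1 and Dusp1, which gave the most matches to the core of the cAMP response element, both strands counted. Each runs 5′ to 3′ along the gene over 300 bases, and capitals mark that core (TGACG), the whole element (TGACGTCA), the TATA box (TATAAA) and a site of the Egr type (GCGNGGGCG), searched on both strands (a match on the other strand reads as CGTCA or as CGCCCCCGC).

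Fos, chr12:85473640-85473939, plus strand: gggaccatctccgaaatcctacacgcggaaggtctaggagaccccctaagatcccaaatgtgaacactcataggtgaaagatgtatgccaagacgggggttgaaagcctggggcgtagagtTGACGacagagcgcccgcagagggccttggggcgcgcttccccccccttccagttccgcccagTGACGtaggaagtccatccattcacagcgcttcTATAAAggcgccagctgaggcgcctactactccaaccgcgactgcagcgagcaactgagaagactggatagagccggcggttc

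Fosb, chr7:19309996-19310295, minus strand: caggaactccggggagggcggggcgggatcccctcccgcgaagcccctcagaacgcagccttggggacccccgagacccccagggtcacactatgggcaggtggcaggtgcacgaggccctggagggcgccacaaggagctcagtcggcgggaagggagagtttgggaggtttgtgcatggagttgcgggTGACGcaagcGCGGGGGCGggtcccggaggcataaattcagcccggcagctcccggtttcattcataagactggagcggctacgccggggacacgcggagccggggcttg

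Nr4a1, chr15:101266596-101266895, plus strand: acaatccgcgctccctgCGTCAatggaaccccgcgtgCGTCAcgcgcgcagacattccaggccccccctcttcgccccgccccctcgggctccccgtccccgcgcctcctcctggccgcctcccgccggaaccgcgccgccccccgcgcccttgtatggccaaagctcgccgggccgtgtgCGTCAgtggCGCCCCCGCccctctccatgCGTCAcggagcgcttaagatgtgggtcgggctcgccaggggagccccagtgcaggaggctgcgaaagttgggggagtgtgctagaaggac

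Dusp1, chr17:26508423-26508722, minus strand: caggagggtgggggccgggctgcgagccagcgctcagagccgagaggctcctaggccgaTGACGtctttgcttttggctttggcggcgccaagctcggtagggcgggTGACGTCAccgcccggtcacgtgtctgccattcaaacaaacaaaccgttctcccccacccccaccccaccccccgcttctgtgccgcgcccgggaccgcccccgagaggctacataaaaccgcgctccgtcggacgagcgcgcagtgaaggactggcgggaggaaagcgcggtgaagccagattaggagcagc

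The core TGACG, which lies inside the whole element, was found in 6 of the 7 promoters (Fos, Fosb, Junb, Atf3, Nr4a1 and Dusp1), against 20.8% of the 32851 promoters in the table. Only Dusp1 among the 7 held TGACGTCA, 143 bases before its start, and 1.79% of all promoters did. That element reads the same on both strands, so the core in it was matched on each strand. Fos carried TGACG at 129 and 66 bases and TATAAA at 33 bases before its start. The Egr-type site was in Fosb and Nr4a1 and in 5.55% of all promoters. The AP-1 site TGANTCA (7.81% of all promoters) and the CArG box (1.63%) were not found in these windows. A match is a description of the letters and not of a bound site.

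Fos, Fosb, Jun, Junb, Egr1, Atf3, Ier2, Dusp1 and Nr4a1 were well above background in both dyes on all 4 arrays, and none of the 10 probes was saturated. All 9 were higher in the DEP channel on array 1, where 48.9% of the measured genes were higher. All 9 were lower on arrays 2 and 3, where 39.7% and 49.1% of the measured genes were lower, and on array 4 they split, with 6 of 9 lower beside 46.4%. Averaged over the arrays, 0 of the 10 genes and 0% of all genes differed between the channels after adjustment in limma. The direction of every ratio is taken from the source names of the channels, and it runs against the direction that the study states for its own leading genes. If the channels were exchanged, every sign would turn and every size would stay.

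Egr3 was not well above background in either dye on any array. Its signals lay between 6.96 and 21.7, so no fold is given for it.

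Fos had log2 ratios of DEP over control of 3.22, -1.08, -0.95 and -0.32 on arrays 1 to 4. The DEP ear was 9.32-fold higher on array 1, and the control ear was 2.12-fold higher on array 2. The Fos probe is printed 10 times on each array, and the SD between those spots was between 0.016 and 0.039, which covers the repeat of spots within an array only. Their mean was 0.22 ± 2.03 (SD, n = 4 arrays; limma's moderated standard error, which also draws on the other probes, was 0.79), with an adjusted p = 0.897 from limma.

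Fosb, the other Fos subunit, had ratios of 3.18, -1.57, -2.24 and -0.68. It was 9.05-fold higher in the DEP ear on array 1 and 4.72-fold higher in the control ear on array 3. Its mean of -0.33 ± 2.42 (SD, n = 4 arrays) was the most variable of the 9, and its SD exceeded that of 99.4% of the genes measured as fully.

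The Jun subunits had narrower ratios than the Fos subunits. Jun had ratios of 1.23, -0.47, -0.75 and -0.22, with a mean of -0.05 ± 0.88 (SD, n = 4 arrays). Junb had 1.98, -1.06, -0.77 and -1.19, with a mean of -0.26 ± 1.50. Both were therefore higher on array 1 and lower on the 3 others.

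Egr1 had ratios of 2.40, -0.94, -1.29 and -0.58, with a mean of -0.10 ± 1.69 (SD, n = 4 arrays). Atf3 had 2.36, -1.17, -1.12 and 0.33, with a mean of 0.10 ± 1.66. Ier2 had 1.55, -0.60, -0.42 and -0.48, with a mean of 0.02 ± 1.03. Egr1 and Ier2 were lower on each of arrays 2 to 4, whereas Atf3 was higher on array 4.

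Dusp1, which limits the MAP kinases that switch these genes on, had ratios of 1.84, -0.31, -0.48 and 0.37, with a mean of 0.35 ± 1.06 (SD, n = 4 arrays). Nr4a1 had 0.76, -1.30, -1.28 and 0.21, with a mean of -0.40 ± 1.05. It was the member with the smallest ratio on array 1, 1.70-fold, and the only 1 of the 9 that did not pass 2-fold there.

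**Figure D1:**
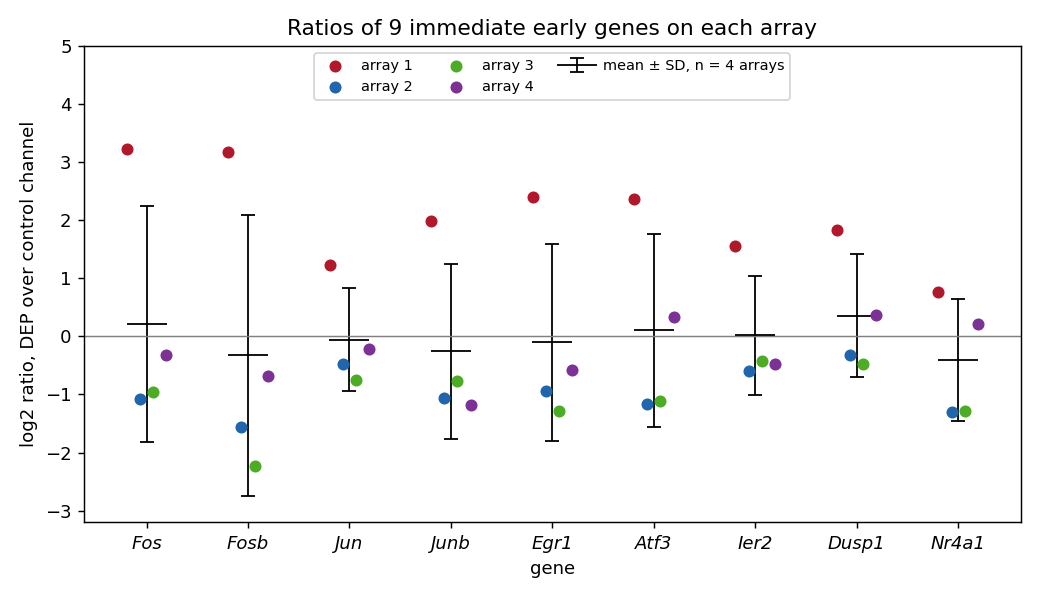
Log2 ratio of the DEP over the control channel (vertical axis) for the 9 genes measured in both dyes on all arrays; coloured points are the 4 arrays, the black dash and bar are mean ± SD (n = 4 arrays). Every gene lies above 0 on array 1, up to 3.22 for Fos, and below 0 on arrays 2 and 3, down to -2.24 for Fosb.

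After Benjamini-Hochberg adjustment over all probes, 0 of the 10 genes passed 0.05 by limma, and 0% of all genes did. At an unadjusted p under 0.05 the count was also 0 of 10, where 18.7% of all genes passed. Without moderation of the variance the count was again 0, and the share of all genes was not counted there. The adjusted p of the 9 measured genes lay between 0.621 and 0.986. By size, 0 of 10 had a mean past 2-fold, against 6.75% of all genes. The exact sign-flip permutation test, two-sided, gave p = 0.50 for Nr4a1 and higher values for the others, and with 4 ratios its smallest possible p is 1 in 8, so that it cannot reach 0.05. The median of the 9 mean ratios was -0.05, beside 0.03 over all genes tested.

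The members' spread between arrays was wide. Their median SD was 1.50 on the log2 scale, against 0.28 over the 18358 genes measured in both dyes on all arrays, and each of the 9 had an SD above that of at least 91.4% of those genes. On array 1, 8 of the 9 were past 2-fold higher in the DEP channel, where 6.81% of the measured genes were; this count was chosen after the ratios had been seen. The medians of the 9 genes on arrays 1 to 4 were 1.98, -1.06, -0.95 and -0.32. Those of all measured genes were -0.01, 0.08, 0.01 and 0.03.

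Leaving out any single array turned the sign of some means, those of 4 genes without array 1, 4 without array 2, 3 without array 3 and 3 without array 4. Without array 1, all 9 measured genes had a mean below 0, with a range from -1.50 for Fosb to -0.14 for Dusp1. At an unadjusted p under 0.05, 6 of the 10 genes were then lower in the DEP channel (Fos, Fosb, Jun, Junb, Egr1 and Ier2), against 6.88% of all genes. Without array 2, 3 or 4 in turn, 0 of the 10 passed an unadjusted 0.05, and the share of all genes was not counted in those fits. After adjustment 0 of 10 passed without array 1 and 0% of all genes did, with a smallest adjusted p of 0.190 for the members, for Junb, from limma.

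The signals of the 8 ears were compared after the arrays had been brought to a common distribution of mean signal. In log2 signal, Fos stood at 12.73, 10.34, 10.55 and 10.36 in the DEP ears of arrays 1 to 4 and at 9.51, 11.42, 11.51 and 10.68 in the control ears. The DEP ear of array 1 held the highest of the 8 values and the control ear of the same array the lowest. The groups overlapped for Fos and for each of the other 8 genes. How many of all genes overlap was not counted, so the overlap cannot be called particular to the members.

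Fosb stood at 11.03, 8.69, 8.76 and 8.33 in the DEP ears and at 7.86, 10.25, 11.00 and 9.01 in the control ears. Its highest value, in the DEP ear of array 1, was only 0.03 above that of the control ear of array 3. Nr4a1 stood at 12.78, 12.22, 12.69 and 12.66 in the DEP ears, and at 12.02, 13.53, 13.98 and 12.45 in the control ears. The SD was 0.91 in the ears labelled control and 0.25 in those labelled DEP, and these would change places if the channels were exchanged.

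Over the 9 genes, the DEP ear of array 1 was the highest ear for 7, and the control ear of array 3 for the other 2, Jun and Nr4a1. The control ear of array 1 was the lowest for 8, all but Junb. The same order was not counted over all genes, whose ratios were widest on array 1 (SD 0.98). These counts therefore cannot be called particular to the members. The SD of the control ears was between 0.45 for Ier2 and 1.39 for Fosb. Each control ear lay on its own array, so ear and array cannot be told apart in that SD.

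**Figure D2:**
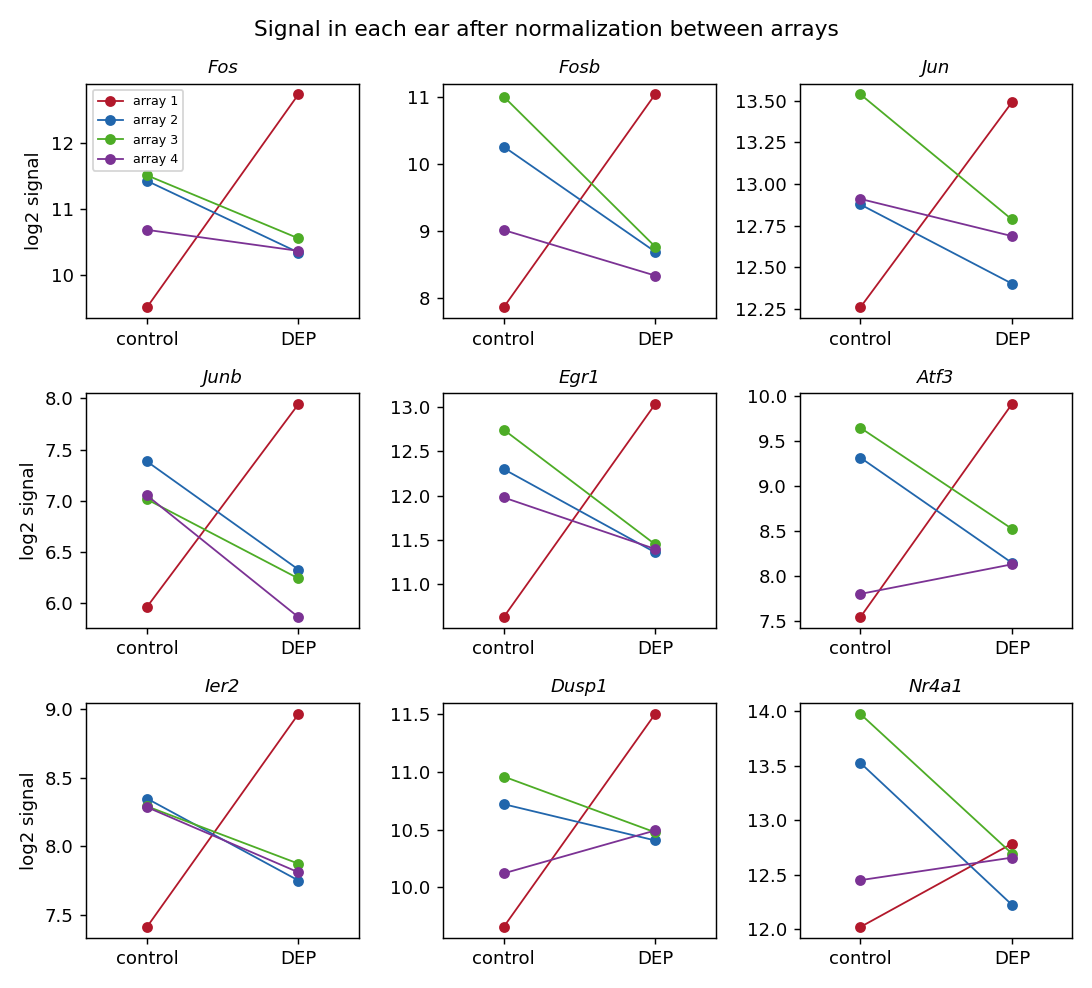
Log2 signal (vertical axis) of each of the 9 genes in the control and the DEP ear of each array; a line joins the 2 ears of 1 array. The line of array 1 rises in all 9 panels, and the control ears alone span from 0.94 for Ier2 to 3.14 for Fosb.

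Of 50 further immediate early genes, 49 had a ratio and 45 were measured in both dyes on all arrays. At an unadjusted p under 0.05, 4 of the 45 were higher in the DEP channel (Maff, Per1, Rhob and Sgk1) and 0 were lower, where 18.7% of all genes passed in either direction. After adjustment 0 of them passed. Over all 49 with a ratio the unadjusted count was 5, and it was 22 when the signals were corrected by normexp and centred on the median of each array, where 40.3% of all genes passed. Without array 1 it was 10, with 5 higher and 5 lower, where 17.7% of all genes passed. The median of the 45 was 0.18, and on arrays 1 to 4 it was 0.59, 0.11, -0.07 and 0.004.

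The genes at the upper end by mean were Maff, Egr2, Fosl2 and Cebpb. Egr2, a zinc finger factor of the Egr family, had ratios of 4.07, 0.64, 1.03 and -2.36 on arrays 1 to 4, with a mean of 0.84 ± 2.63 (SD, n = 4 arrays). Maff, a small Maf factor, had 1.71, 0.93, 0.33 and 0.43, with a mean of 0.85 ± 0.63. Fosl2, a further Fos family member, had a mean of 0.65 ± 0.79, and Cebpb, a factor of inflammatory gene control, 0.65 ± 1.46. The arrays thus disagreed in sign for Egr2, Fosl2 and Cebpb but not for Maff.

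At the lower end of the 45 lay Ccn1, Nr4a2, Gadd45g and Hes1. Ccn1, a matricellular protein induced early by serum, had ratios of 1.13, -1.35, -1.80 and -0.48, with a mean of -0.63 ± 1.29 (SD, n = 4 arrays). Nr4a2, a relative of Nr4a1, had -1.11, -0.43, -0.40 and 0.23, so that it was lower on array 1, where Nr4a1 was higher. The means of Gadd45g and Hes1 were -0.25 ± 0.22 and -0.12 ± 0.68.

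Per1, a clock gene that is also induced early, was chosen for mention after its values were seen. It had ratios of 0.52, 0.55, 0.65 and 0.86, with a mean of 0.64 ± 0.15 (SD, n = 4 arrays; moderated standard error 0.11) and an adjusted p = 0.122 from limma. Its arrays agreed in sign and size, unlike those of the 9 members. On array 1, 14 of the 45 genes were past 2-fold higher, where 6.81% of the measured genes were, among them Zfp36 with 1.96 and Plk3, a stress-induced kinase, with 2.56; both were chosen for mention after their values were seen.

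**Figure D3:**
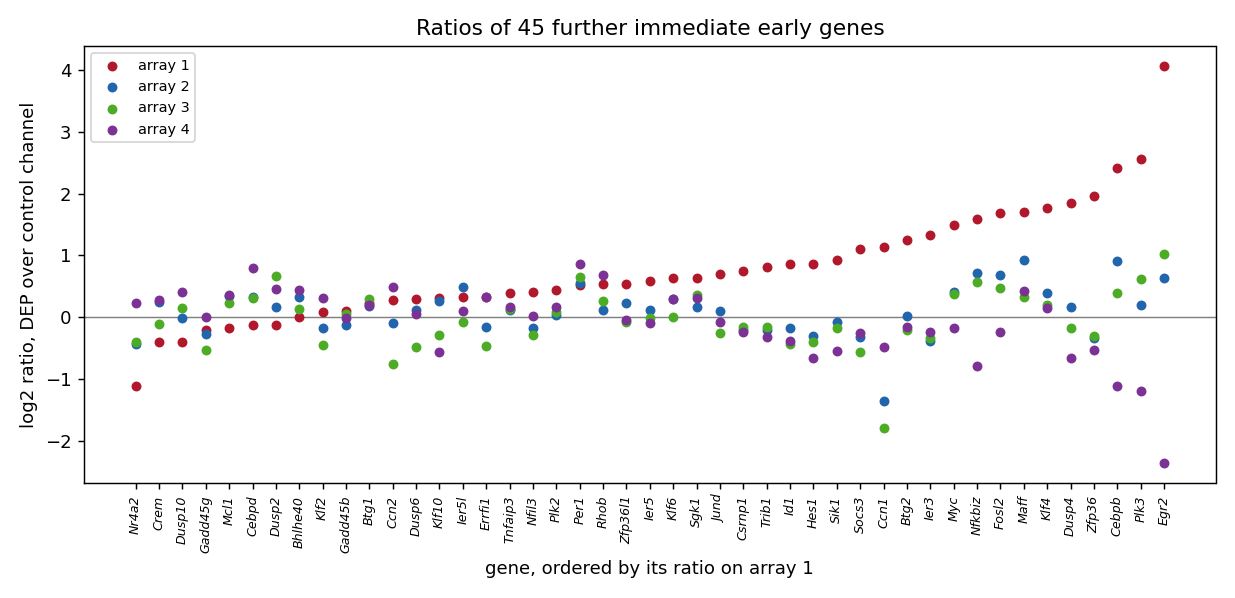
Log2 ratios of the DEP over the control channel (vertical axis) of 45 further immediate early genes, ordered by their ratio on array 1; coloured points are the 4 arrays. The array 1 points reach 4.07 at Egr2, whose array 4 point lies at -2.36.

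Of 8 genes of neuronal activity, such as Arc and Npas4, which neurons switch on when they fire, 7 were measured in full. Their medians were -1.08, -0.60, -0.04 and 0.30 on arrays 1 to 4. Markers of neurons had medians of -2.24, -1.78, -0.77 and 0.29 on the same arrays, and their part in the ratios of the activity genes was not tested. Arc had ratios of -1.21, -0.64, -0.24 and 0.10, and Npas4 had -1.22, -1.66, -0.44 and 0.48. At an unadjusted p under 0.05, 1 of the 7 was lower (Vgf, a secreted neuropeptide precursor, mean -1.21 ± 1.04) and 0 were higher, where 18.7% of all genes passed in either direction. Bdnf, Homer1, Rgs2 and Rheb had means of -0.31, 0.02, -0.04 and 0.26.

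Of 27 kinases and factors that act upstream of these genes, 26 were measured in full. Their medians lay between -0.03 and 0.04 on the 4 arrays, with single genes on both sides, such as Mapk9 at -1.05 on array 1. At an unadjusted p under 0.05, 2 of the 26 were higher and 0 lower, where 18.7% of all genes passed in either direction, and after adjustment 0 passed. Creb1, which binds the cAMP response element, had ratios of 0.37, 0.57, 0.49 and 0.62, with a mean of 0.51 ± 0.11 (SD, n = 4 arrays) and an adjusted p = 0.145 from limma. Srf, which binds the CArG box, had a mean of 0.33 ± 0.15. Nab2, an Egr corepressor, and Atf1 had means of 0.28 and 0.27. The lowest means were those of Mapk9 (-0.41), Map2k1 (-0.31), Mapk3 (-0.20) and Fbxw7 (-0.19).

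Markers of cell types moved between the arrays as well. The neuron medians given above rest on 13 fully measured of 15 genes, and the 8 astrocyte genes had medians of -2.37, -0.85, -0.07 and 0.12. Both lists had their lowest medians on arrays 1 and 2, where the immediate early genes stood at 1.98 and -1.06. The summed signal of all 15 neuron genes, in log2, ranged from 14.02 to 15.27 in the DEP ears and from 14.87 to 16.08 in the control ears.

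The 6 fully measured of 12 cerebellum genes had medians of -2.50, -2.83, -0.22 and 0.25. Those of 10 skeletal muscle genes were -0.72, -0.42, 0.75 and 0.80. Those of 10 neutrophil genes were -0.90, 0.09, 0.57 and 0.17. On array 3, 9 of the 10 muscle genes and 8 of the 10 neutrophil genes were higher, beside 50.9% of the measured genes. On array 1 none of either list was higher, beside 48.9% of the measured genes.

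Precursors of B cells had medians of -0.62, 0.06, 0.52 and 0.39, erythroid genes -0.78, 0.32, 0.45 and 0.18, and macrophage genes -0.30, -0.03, 0.41 and 0.64. The medians of bone and cartilage genes lay between -0.27 and 0.27. All 12 genes of airway-type epithelium, which lines part of the middle ear, were measured in full, and their medians lay between -0.42 and 0.28. On array 1, 4 of these 12 were higher, all past 2-fold (Krt5 2.17, Scgb1a1 1.86, Cdh1 1.74 and Epcam 1.62), where 6.81% of the measured genes were past 2-fold higher. The other 8 were lower there, 2 of them past 2-fold (Muc5b -1.09 and Ltf -1.32). Krt5, Cdh1 and Epcam are also expressed in skin, for which no gene list was run. The skin and hair genes Krt77, Krt81, Slurp1 and Lce1m had ratios of 2.22, 1.88, 2.41 and 2.30 on array 1. They were picked, after their values were seen, from the genes most like the members in their 4 ratios. Their high ratios on array 1 therefore follow from the choice and do not describe skin genes as a set. The part of these cell types in the ratios of the immediate early genes was not tested, and each of their marker genes with a ratio was above background in at least 1 dye on at least 1 array.

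**Figure D4:**
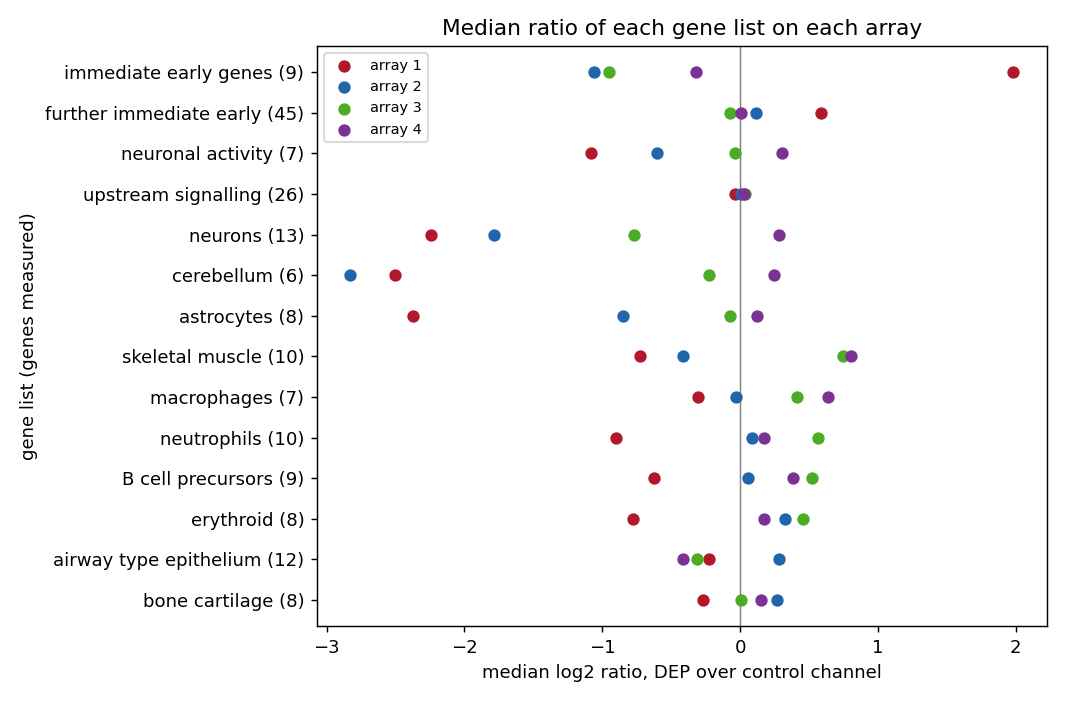
Median log2 ratio of the DEP over the control channel (horizontal axis) of each gene list (vertical axis, with the number of genes measured in both dyes on all arrays); coloured points are the 4 arrays. The 9 immediate early genes are the list with the highest median on array 1, 1.98, while the neuron, cerebellum and astrocyte lists lie below -2 there.

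The genes most like the members in their 4 ratios were sought among the 18351 measured genes that had a ratio on every array, by the Euclidean distance over the 4 arrays to the members' median profile. Among the 5 nearest that were not members were Ccl7 (distance 0.95), Zfp36 (1.00), the transcript AK154954 (1.00) and Htr2b (1.06). Ccl7, a chemokine for monocytes, had ratios of 1.54, -0.80, -0.87 and 0.48. Zfp36 encodes a protein that destabilises messenger RNAs. Over 4 arrays such a likeness is a description.

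The arrays themselves differed, which bears on any mean over them. Across the 18351 measured genes, which are not independent replicates, Pearson's r was 0.63 between arrays 1 and 2 and -0.47 between arrays 1 and 4, and over all 31577 probes tested the latter was -0.22. The SD of the ratios over genes was widest on array 1, at 0.98, and lay between 0.62 and 0.68 elsewhere. Between 66.6% and 70.0% of spots were well above background in Cy5 and between 60.5% and 69.1% in Cy3.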

How the data were processed

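RNA of middle ears was read on 4 two-colour arrays, and each array was treated as 1 replicate of DEP over control. Feature Extraction 10.10.1.1, which the authors used per the file headers, read the spots. The deposited intensity is background-subtracted, detrended and normalized between the dyes of an array. Each deposited log10 value compares Cy5 with Cy3. The deposited series table holds the same log10 ratios, rounded. The dyes were not swapped, so dye and exposure cannot be told apart, and all arrays shared 1 slide and 1 scan.

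Ratios were put on the log2 scale. Control spots, outlier-flagged spots and those whose ratio was given as 0 were dropped, and probes were kept where 3 or more arrays gave a ratio (31577 of 39429 probes). Accessions named 27649 probes through RefSeq (GRCm38.p6, used for names and promoters). The brightest probe stood for its gene. An intercept was fitted with lmFit and eBayes in limma 3.58.1 (R 4.3.3), two-sided, and all probes tested entered the Benjamini-Hochberg adjustment. Levels per ear came from the processed signals after Aquantile normalization. The fit was tested on simulated data. Python 3.11.15 and pandas 2.3.3 were used.

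The genes named are the members, the 4 highest and 4 lowest by mean of each further list among genes measured in both dyes on all arrays, and the 5 nearest in pattern, of which 1 is not reported here; exceptions are stated. Members and lists were chosen with earlier results of these data known. The alternatives were normexp correction (offset 50) with loess or median centring, the deposited table, a filter on dim probes, flagged spots kept, an intensity trend, no moderation, probes of a gene averaged, the measured members alone, and each array left out. Arrays limit the precision by their number.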

Additional observations from a re-analysis of the deposited data

Results flagged for a closer look

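Junb and Ier2 each had 1 array far from the other 3. The gap from array 1 to the nearest other array, divided by the whole range of the 4 ratios, was 0.869 for Junb and 0.917 for Ier2, larger than 4 samples allow at the 95% level. Chance alone gives about 1 in 20 such groups, and 9 genes that move together were looked at. For Fos and Egr1 the same share was 0.822 and 0.807, just within that limit, and for Nr4a1 it was 0.270.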

How the results depend on the processing

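No alternative that was run gave any of the 10 genes an adjusted p under 0.05 (limma). The median of their mean ratios, -0.02, was -0.03 under normexp followed by loess, 0.18 under normexp followed by median centring and -0.05 over the 9 measured genes, a choice added after seeing the data, and it ranged from -0.72 without replicate 1 to 0.24 without replicate 3. The number past 2-fold, 0, ranged from 0 to 2, the latter without replicate 1, where the share of all genes was not counted. Among the 49 further immediate early genes, 5 had an unadjusted p under 0.05, the 4 named above and 1 that was not measured in both dyes; there were 3 without moderation, 22 with normexp and median centring, and from 3 (without replicate 2 or 3) to 10 (without replicate 1) with 1 array left out. Signs turned for Jun (0.013) and Ier2 (-0.032) with normexp and loess, and for Jun (0.47), Egr1 (0.26) and Nr4a1 (0.0053) with median centring. With 1 array left out the mean of Fos ranged from -0.78 to 0.65, Fosb from -1.50 to 0.31, Jun from -0.48 to 0.18, Junb from -1.01 to 0.051, Egr1 from -0.94 to 0.29, Atf3 from -0.65 to 0.52, Ier2 from -0.50 to 0.22, Dusp1 from -0.14 to 0.63, and Nr4a1 from -0.79 to -0.10, the lowest in each case without replicate 1. The cause was not tested. Each member has 1 probe, so the mean of a gene's probes changed nothing for them, and it was not run for the further genes or for the adjusted p.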
